A study of Rattus norvegicus with 6 samples.

Results

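The genes S100a8 (ENSRNOG00000011557), S100a9 (ENSRNOG00000011483) and Lcn2 (ENSRNOG00000013973) were followed in injured rat facial nerve. They were chosen by gene ID as genes of neutrophils and of the acute-phase response, and are 3 of 30562 IDs in the count table. The table gives IDs alone, and the names were taken from the list that chose the members. RNA was sequenced from poly(A)-enriched libraries of facial nerve tissue of wild type rats, all collected on day 14 after the nerve was injured. The groups were injured nerve alone, the facial nerve injury model (FNI, 3 libraries), and injured nerve that also received C-Gel-light (3 libraries), a Chlorella hydrogel meant to make oxygen when lit. Strain, age, sex and the kind of injury were not given in the sources used here, and neither was whether each library had its own animal. The p-values below therefore rest on variation among these libraries, part or all of which may be technical. Uninjured nerve, gel without light and light without gel were not analysed here. The parts of gel, alga and light in any difference therefore cannot be told apart.

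S100A8 and S100A9 are small calcium-binding proteins that pair to form calprotectin, which fills the cytosol of neutrophils and is also made by monocytes. Released calprotectin withholds zinc and manganese from microbes and acts on the receptors TLR4 and RAGE. Lipocalin 2, the product of Lcn2, is a secreted protein that binds bacterial siderophores and so keeps iron from microbes. It is stored in neutrophil granules, but inflamed epithelia, macrophages and astrocytes make it too, so its transcript does not mark neutrophils alone. In a cut or crushed nerve neutrophils come early and macrophages follow. In the RefSeq annotation of the rat assembly GRCr8, S100a8 and S100a9 lie side by side on chromosome 2, with 0 protein-coding genes between them and other S100 genes next to them, and Lcn2 lies on chromosome 3.

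RefSeq promoters were at hand for S100a9 and Lcn2, the pair whose levels are set against each other below. Each run holds the 250 bases before the annotated start in GRCr8, 5′ to 3′ on the gene's strand, which is the minus strand for both. S100a9 is at chr2:178490623-178490872 and Lcn2 at chr3:36081781-36082030. Capitals mark matches to 4 motifs searched on both strands, namely TATAAA, the C/EBP core TTGCNNAA, the STAT core TTCNNNGAA and the NF-kB consensus.
S100a9: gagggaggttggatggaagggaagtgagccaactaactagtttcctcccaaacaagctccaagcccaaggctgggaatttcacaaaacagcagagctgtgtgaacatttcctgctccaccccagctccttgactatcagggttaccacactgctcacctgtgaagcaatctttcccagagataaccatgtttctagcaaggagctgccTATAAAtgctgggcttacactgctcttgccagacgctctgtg
Lcn2: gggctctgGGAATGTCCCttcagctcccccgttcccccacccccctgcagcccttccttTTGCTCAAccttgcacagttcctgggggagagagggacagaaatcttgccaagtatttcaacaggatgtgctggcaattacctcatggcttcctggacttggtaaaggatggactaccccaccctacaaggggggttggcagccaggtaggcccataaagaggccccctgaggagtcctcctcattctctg

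The letters of these promoters differed. S100a9 held TATAAA from base 42 to base 37 before the start and none of the other 3 motifs. Lcn2 held the NF-kB consensus from base 242 to base 233, on the opposite strand, and the C/EBP core from base 191 to base 184, and neither TATAAA nor the STAT core. The matches do not overlap. Of 33469 RefSeq promoters of this length, 12.9% held TATAAA, 9.22% the C/EBP core, 7.67% the STAT core and 3.54% the NF-kB consensus. A match is a description of letters and was not tied to any measurement here.

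At this time the calprotectin genes were scarce in nearly every library, and Lcn2 was the abundant member of the group. All C-Gel-light libraries had more Lcn2 than all FNI libraries, but this difference did not pass the test over all genes. S100a8 and S100a9 were far higher in C-Gel-light replicate 3 than in any other library, and even there only near the middle of the detected genes. The depth behind these values was 22957382 to 28997855 counts per library.

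Lcn2, the siderophore-binding lipocalin, was counted 231, 256 and 62 times in FNI replicates 1 to 3, against 618, 397 and 310 times in C-Gel-light replicates 1 to 3. As CPM, the count relative to the TMM-scaled library size, these were 8.26, 10.5 and 2.37 against 24.6, 16.1 and 12.6. The groups did not overlap, and the lowest C-Gel-light library stood 1.2-fold above the highest FNI library. Such a separation, with C-Gel-light higher, was found for 18.2% of the 15581 genes tested. The mean was 7.04 ± 4.19 CPM in FNI and 17.8 ± 6.17 CPM with C-Gel-light (SD, n = 3 per group).

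The fitted log2 fold change of Lcn2, C-Gel-light over FNI, was 1.34 (SE 0.51), or 2.53-fold with a 95% interval of 1.09 to 5.89. The edgeR quasi-likelihood test gave an adjusted p of 0.12, above the threshold of 0.05, and 0.036 before adjustment. A two-sided exact permutation test of log2 CPM gave p = 0.1, the smallest that 3 against 3 libraries allow. By unadjusted p, 28.6% of the tested genes ranked ahead of Lcn2. DESeq2, an alternative tool, called Lcn2 with an adjusted p of 0.028 and nearly the same log2 fold change of 1.35. It called more genes in all, 3618 against 2301 by edgeR.

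FNI replicate 3 was low for Lcn2, at 4.42-fold below FNI replicate 2. The range of log2 CPM across the FNI libraries was 2.11 for Lcn2, against a median of 0.32 over the tested genes, and 1.91% of them ranged more widely. The 95% counting interval of FNI replicate 3, 1.82 to 3.04 CPM, lay below those of all other libraries, the next lowest of which began at 7.23 CPM. Without this library the log2 fold change of Lcn2 was 0.93 and the edgeR adjusted p was 0.14 (0.021 before adjustment). That fit called 849 genes in all, against 2301 with all libraries.

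S100a9, the larger calprotectin subunit, was counted 10, 6 and 10 times in FNI replicates 1 to 3, against 5, 13 and 90 times in C-Gel-light replicates 1 to 3. The CPM values were 0.358, 0.246 and 0.383 in FNI and 0.199, 0.529 and 3.66 with C-Gel-light. The groups overlapped, since C-Gel-light replicate 1 was the lowest of all 6 libraries. C-Gel-light replicate 3 stood 6.92-fold above the next library and held 83.3% of the group's S100a9 counts. Its 95% counting interval of 2.94 to 4.50 CPM lay apart from the 0.282 to 0.904 CPM of replicate 2 and the 0.0647 to 0.465 CPM of replicate 1.

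Group means of S100a9 were 0.329 ± 0.073 CPM in FNI and 1.46 ± 1.91 CPM with C-Gel-light (SD, n = 3). The log2 fold change was 2.13 (SE 1.02), with a 95% interval of -0.28 to 4.54, and the edgeR adjusted p was 0.20 (0.075 before adjustment). Only 0.783% of the tested genes, which were of all abundances, had a higher fitted log2 fold change. By unadjusted edgeR p, however, 37.8% of them ranked ahead of S100a9. Without C-Gel-light replicate 3 the log2 fold change of S100a9 was 0.15, with an edgeR adjusted p of 0.89. The exact permutation test on log2 CPM gave p = 0.5.

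S100a8, the smaller calprotectin subunit, was counted 6, 1 and 3 times in FNI replicates 1 to 3, against 2, 8 and 32 times in C-Gel-light replicates 1 to 3. In CPM these were 0.215, 0.041 and 0.115 against 0.080, 0.325 and 1.30. C-Gel-light replicate 3 was again the highest library, with 76.2% of the S100a8 counts of its group, and the other 5 libraries overlapped. This gene did not pass the filter on low counts and was not among the genes tested.

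When S100a8 was added back to the same fit, its log2 fold change was 2.13 (SE 1.04), with a 95% interval of -0.31 to 4.57 and an edgeR adjusted p of 0.20. Without C-Gel-light replicate 3 it was 0.67 (edgeR adjusted p = 0.67). The exact permutation test of log2 CPM gave p = 0.3.

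**Figure D1:**
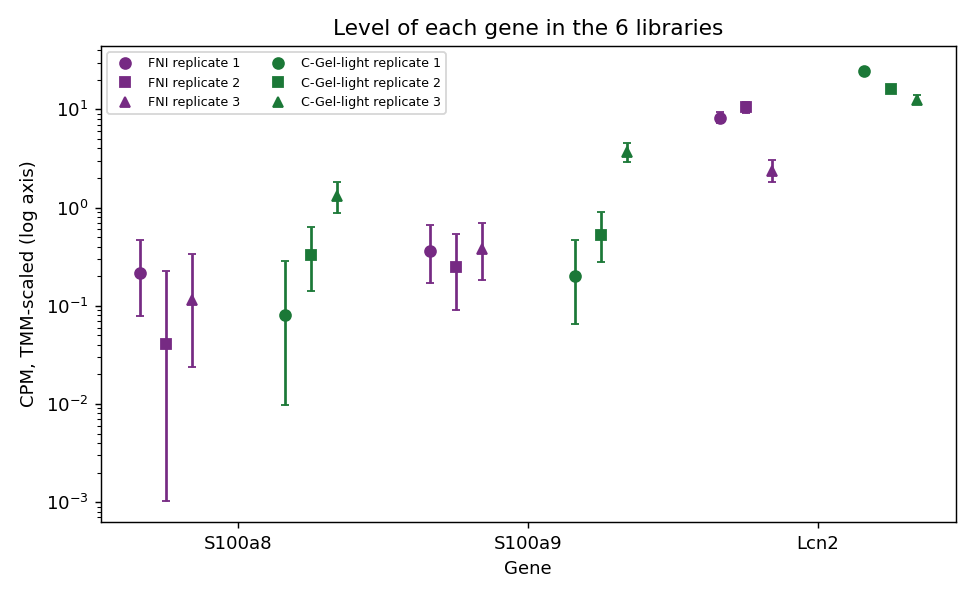
CPM of S100a8, S100a9 and Lcn2 (TMM-scaled, log axis) in each library, with purple for FNI and green for C-Gel-light, a circle, square and triangle for replicates 1, 2 and 3, and bars for 95% counting intervals. C-Gel-light replicate 3 stands above all others for S100a8 (1.30 CPM) and S100a9 (3.66 CPM), while for Lcn2 all C-Gel-light libraries lie above all FNI libraries.

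Of the 3 members 2 were thus tested, and 0 of these passed an adjusted p under 0.05 by edgeR, where 14.8% of all tested genes did. At an unadjusted p under 0.05 it was 1 of 2, Lcn2, where 32.4% of all tested genes lay. DESeq2 called 1 member, Lcn2, and limma-voom called 0. Over all tested genes DESeq2 called 3618 and limma-voom 2207, against 2301 by edgeR. The intervals above are wide: for S100a9 the fold change could lie between 0.826 and 23.2, so these libraries bound it only loosely. In whole tissue, a change in the number of cells of a type and a change in RNA per cell cannot be told apart.

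**Figure D2:**
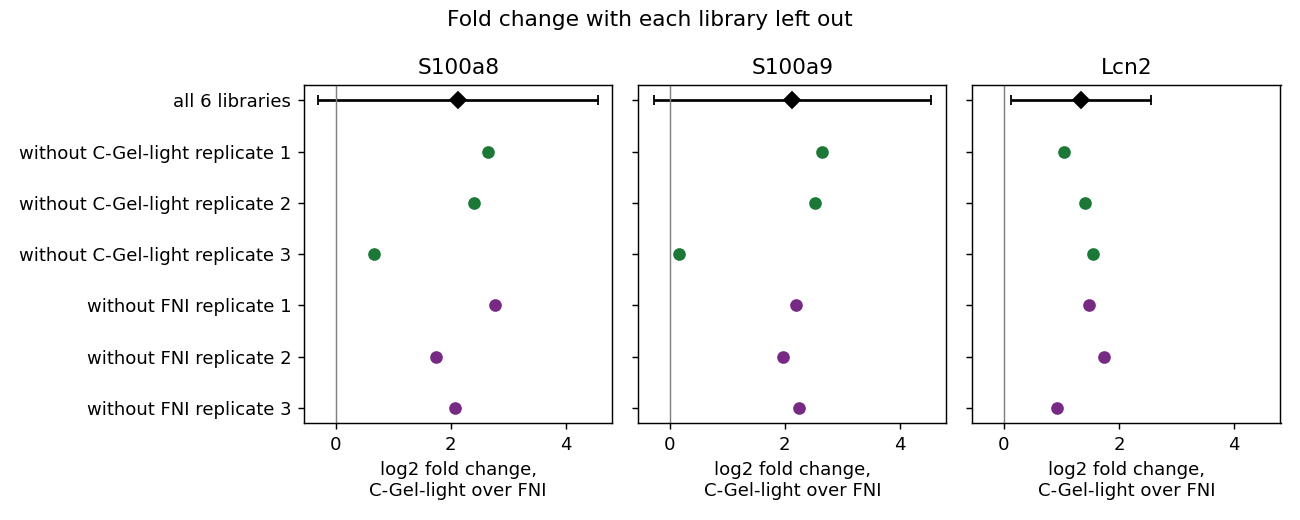
Fitted log2 fold change (C-Gel-light over FNI, horizontal axis) of each gene with all 6 libraries (black diamond, bar for the 95% interval) and with each library left out (points, purple where an FNI and green where a C-Gel-light library is missing). S100a9 falls to 0.15 and S100a8 to 0.67 without C-Gel-light replicate 3, whereas Lcn2 runs from 0.93 without FNI replicate 3 to 1.74 without FNI replicate 2.

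Levels of different genes were compared per length, in the deposited FPKM (fragments scaled by gene length and library total), which used gene lengths of 357 bases for S100a8, 675 for S100a9 and 1133 for Lcn2. In FNI, Lcn2 was at 6.67 ± 3.83, S100a9 at 0.534 ± 0.135 and S100a8 at 0.379 ± 0.265 FPKM (SD, n = 3). With C-Gel-light the same order of means held, at 14.2 ± 4.11, 2.10 ± 2.80 and 1.53 ± 1.80 FPKM. Lcn2 was the highest of the 3 in every library. The order of S100a8 and S100a9 changed between libraries, and in both groups their means differed by less than the SD of S100a8.

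Set against all genes detected by a nonzero FPKM in the same library, Lcn2 lay above 39.6% to 67.8% of them in FNI. With C-Gel-light it lay above 72.4% to 85.5%. S100a9 lay above 21.1% to 26.0% of detected genes in FNI. With C-Gel-light it lay above 19.4%, 29.4% and 55.7% of them in replicates 1 to 3. S100a8 lay above 11.4% to 26.4% in FNI and above 16.9%, 31.0% and 48.3% in C-Gel-light replicates 1 to 3. In C-Gel-light replicate 3 the calprotectin genes thus reached the middle of the detected genes, and in the other 5 libraries they were in the lower part.

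**Figure D3:**
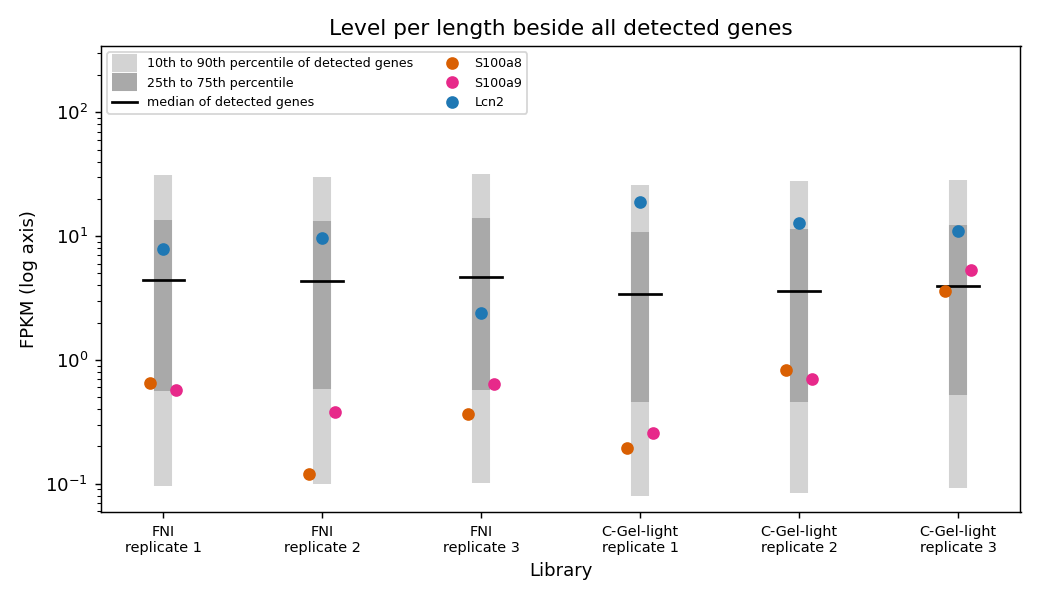
FPKM (log axis) of the 3 genes in each library, over bars that span the 10th to 90th (light grey) and 25th to 75th percentile (dark grey) of detected genes, with a black line at their median. Lcn2 lies above the median in every library but FNI replicate 3, while S100a8 and S100a9 approach or pass it in C-Gel-light replicate 3 alone, at 3.58 and 5.32 FPKM.

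The proportion of the calprotectin subunits was measured only loosely. S100a8 made up 28.0% of the S100a8 and S100a9 counts with C-Gel-light (42 of 150, exact 95% binomial interval 21.0% to 35.9%) and 27.8% in FNI (10 of 36, 14.2% to 45.2%). In C-Gel-light replicate 3 alone, the library with most of them, the share was 26.2% (32 of 122, exact interval 18.7% to 35.0%), which lies inside the interval of every other library. Per length, the ratio of S100a8 to S100a9 ran from 0.315 in FNI replicate 2, where it rests on 1 S100a8 count, to 1.16 in C-Gel-light replicate 2. The mean log2 ratio was -0.77 ± 0.93 in FNI and -0.25 ± 0.42 after treatment (SD, n = 3), higher by 0.51. The two-sided exact permutation p was 0.4, in a test that cannot go below 0.1 with 3 against 3 libraries and so does not show that the ratios were alike. The difference was 0.07 without FNI replicate 2, 0.28 without C-Gel-light replicate 2 and 0.99 without FNI replicate 1. These intervals cover counting error only.

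Across the 6 libraries log2 CPM of S100a8 and S100a9 varied together, with Pearson's r = 0.95 (exact permutation p = 0.0069, adjusted over 3 pairs 0.021) and Spearman's rho = 0.89 (exact permutation p = 0.033, adjusted 0.10). Leaving out C-Gel-light replicate 3 and FNI replicate 2, the libraries farthest from the S100a8 median, left r = 0.86 over 4 libraries, on 13 or fewer counts of either gene in each. No such relation was detected for Lcn2. Its r was 0.14 with S100a8 and 0.04 with S100a9 (exact permutation p = 0.76 and 0.92, both 0.92 adjusted), with rho of 0.09 and -0.14 (exact permutation p = 0.92 and 0.80, both adjusted to 0.92).

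Within the C-Gel-light group Lcn2 and the calprotectin genes ranked the libraries in opposite ways. Replicate 1 had the most Lcn2 and the least of both calprotectin genes, and replicate 3 had the least Lcn2 and the most of both. In FNI the CPM of S100a9 also ranked the libraries opposite to Lcn2, on 10 or fewer counts each, but that of S100a8 did not. These orders rest on n = 3 libraries per group and were not tested. Per length, Lcn2 exceeded S100a9 by 73.6-fold in C-Gel-light replicate 1, 18.2-fold in replicate 2 and 2.05-fold in replicate 3. In FNI replicates 1 to 3 the ratios were 13.8, 25.4 and 3.69. The mean log2 ratio was 3.45 ± 1.42 in FNI and 3.81 ± 2.60 after treatment (SD, n = 3), higher by 0.36 with an exact permutation p of 0.9, and its sign turned without C-Gel-light replicate 1 (-0.83) or FNI replicate 3 (-0.42).

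The spread of S100a9 between C-Gel-light libraries was wide beside that of other genes. Its log2 CPM ranged over 3.75 in this group, and 0.366% of the tested genes ranged more widely, against a median range of 0.39. In FNI its range was 0.51, and 31.8% of genes ranged more widely. The tested genes were of all abundances, and counting error widens the range of scarce ones. Genes as scarce as S100a9 were not compared separately. C-Gel-light replicate 3 was the highest library by at least 3-fold for 36 tested genes (0.231%), S100a9 among them. The same count was 23 and 6 for C-Gel-light replicates 1 and 2 and 53, 0 and 7 for FNI replicates 1 to 3. Each library carries a batch label of its own, which the labels do not explain, so its part in these differences cannot be told apart from that of the library or the treatment.

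Genes with a pattern like the mean log2 CPM of the 3 members were sought among 13037 tested genes that averaged 1 or more in log2 CPM, and are given by ID because the files hold no names. The closest was ENSRNOG00000068686, with a Pearson correlation of 0.99 over 6 libraries, at 8.80, 7.99 and 7.38 CPM in FNI replicates 1 to 3 and 8.92, 9.48 and 12.3 CPM in C-Gel-light replicates 1 to 3. ENSRNOG00000002303 came next (0.99), with 1.72 to 2.04 CPM in FNI and 2.03, 2.48 and 3.90 CPM with C-Gel-light. Both were highest in C-Gel-light replicate 3, as was the mean they were chosen to follow (2.01 in log2 CPM), so this is no separate result. Since no relation of Lcn2 with S100a8 or S100a9 was detected, the mean need not stand for Lcn2. The most opposite IDs were ENSRNOG00000031378 (-0.99), with 10.05 to 11.1 CPM in FNI and 8.37 to 10.4 CPM with C-Gel-light, and ENSRNOG00000012991 (-0.99), with 169 to 182 and 130 to 173 CPM. With so many candidates and 6 libraries such correlations are a description of these libraries only.

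No other neutrophil, monocyte or acute-phase gene could be looked up by name, so whether the calprotectin counts of C-Gel-light replicate 3 came with other neutrophil transcripts was not tested. The same holds for markers of blood, epithelium and other cells that can express these genes, and for the markers of nerve tissue itself.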

How the data were processed

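The authors deposited raw whole-number counts by Ensembl ID, and FPKM values for each library. For the 3 members the FPKM values equal those counts divided by library total and gene length, and other genes were not checked. RSEM 1.2.29, STAR 2.4.2a, edgeR 3.28.1, fastp 0.22.0, FastQC 0.11.9 and the build mRatBN7.2 are named, without roles, per the submitters' processing notes. Strandedness and handling of shared reads were not given in the sources used here. Groups and replicate numbers came from the sample titles.

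The 15581 genes kept by filterByExpr (minimum count 10) were fitted in R 4.3.3 with edgeR 4.0.16, by its robust quasi-likelihood method after TMM scaling, with group as the only term. P-values were two-sided and Benjamini-Hochberg adjusted over all genes, with a threshold of 0.05. S100a8 failed the filter and was added back in a second fit, a choice made after seeing the data. The SE of a fold change is its absolute log2 value divided by the square root of the quasi-likelihood F statistic. Intervals of fold changes are at 95%, from this SE and the test's degrees of freedom. They therefore restate the unadjusted p of that test and are no separate estimate of error. Log2 CPM used a prior count of 2. Counting intervals are exact Poisson and Clopper-Pearson, and cover counting error only. The fits were tested on simulated data, drawn for genes past the filter with the same dispersion for all. That test therefore covers neither S100a8 nor a gene far higher in a single library than in the others, such as S100a9.

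Named genes were the 3 members and, for lack of names, 2 IDs most like and 2 most unlike their mean. Of 30562 IDs, 0 matched the RefSeq gene table (GRCr8), so gene and marker lists were not analysed here. Promoters came from RefSeq (2 of 3 members matched). The members and lists were chosen with earlier results of these data known. Alternatives were DESeq2 1.42.0, limma 3.58.1 (voom, and log2 FPKM), other scalings and filters, a replicate block, and leaving out each library.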

Additional observations from a re-analysis of the deposited data

How the results depend on the processing

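The log2 fold change of Lcn2 stayed positive in all 18 alternatives run, from 0.93 to 1.74, and passed the threshold in 1, DESeq2 (log2 fold change 1.35, adjusted p = 0.028, against 0.061 to 0.29 in the others). S100a8 (18 alternatives, 0.66 to 2.77, adjusted p from 0.11 to 0.67) and S100a9 (17 alternatives, 0.15 to 2.65, adjusted p from 0.10 to 0.89) passed in none and were positive in all. The filter of 1 CPM in 3 libraries left no value for S100a9. S100a8 was added back after the filter in every alternative, so its value under that filter does not mean that it passed. The fold depended on how libraries are averaged: limma-voom gave 1.14 and the difference of mean log2 CPM 1.09 for S100a9, against 2.13 by edgeR, and log2(FPKM + 1) gave 0.64, a scale that shrinks folds of low genes by construction. The ratio of Lcn2 to S100a9 changed sign without C-Gel-light replicate 1 (-0.83) and without FNI replicate 3 (-0.42), and ran from -0.83 to 1.75 as each library was left out.

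Against 2301 genes changed over the whole table (1101 higher, 1200 lower), DESeq2 gave 3618, library totals 3937 (645 higher, 3292 lower), log2(FPKM + 1) 3752 (618 and 3134) and log2(FPKM + 0.1) 3833 (626 and 3207). With library totals the log2 fold changes of all tested genes had a median of -0.26, against -0.01 with TMM factors, and Lcn2 was at 1.09. Without the filter log2(FPKM + 1) gave 359 higher and 1730 lower. Leaving out each library, which leaves fewer samples, gave 797 to 1726. The cause of the other shifts was not tested.

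The replicate block gave 1999 genes and log2 fold changes of 1.77, 1.40 and 1.501 for S100a8, S100a9 and Lcn2, none of them called (lowest adjusted p = 0.061). Same-numbered libraries did not deviate together, with correlations of -0.06, 0.03 and 0.09. Counts of 1 to 32 for S100a8 and 5 to 90 for S100a9 limit what can be said of them.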
